A study of Homo sapiens with 4 samples.

Results

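The genes described here encode the nuclear lamina and the inner nuclear membrane proteins that bind it. They were chosen by name, as every probe annotated to LMNA, LMNB1, LMNB2, LBR, EMD, SUN1, SUN2, TMPO, BANF1 and LEMD3, which are 10 of 20042 genes with a named probe on the array. The study compared MDA-MB-468, an established basal-like human breast cancer line, as wild type cells and as cells labelled mH2A1.2 knockout, with 2 samples in each group. The macroH2A1.2 protein is a histone H2A variant spliced from MACROH2A1, and no treatment or time point is given for either group. All 4 samples were hybridised as total RNA to Illumina bead arrays on 1 chip. The labels do not say how the knockout was made or whether samples of a group came from separate clones or cultures, and p-values therefore cover the spread among these samples alone, some or all of which may be technical.

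The lamina is a meshwork of A-type lamins, from LMNA, and B-type lamins, from LMNB1 and LMNB2, under the inner nuclear membrane. It holds heterochromatin at the nuclear edge, largely through the lamin B receptor and through proteins of the LEM domain family, and SUN proteins couple it across the nuclear envelope to the cytoskeleton. Lamins, LEM proteins and the small DNA-bridging protein BAF are released from chromatin at mitosis and reassembled around the daughter nuclei, and loss of lamin B1 is a known mark of senescent cells.

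Promoter sequence is shown for the 3 genes that the results turn on, LMNB2, SUN2 and LBR. Each is the 250 bases before a RefSeq transcription start on GRCh38.p14, written 5′ to 3′ along the gene, with the motifs CCAAT and GGGCGG in capitals on either strand, where the opposite strand reads ATTGG and CCGCCC. For SUN2 the outermost of 3 listed starts was taken, and the other 2 genes have 1 listed start each.
LMNB2 (chr19:2456960-2457209, minus strand): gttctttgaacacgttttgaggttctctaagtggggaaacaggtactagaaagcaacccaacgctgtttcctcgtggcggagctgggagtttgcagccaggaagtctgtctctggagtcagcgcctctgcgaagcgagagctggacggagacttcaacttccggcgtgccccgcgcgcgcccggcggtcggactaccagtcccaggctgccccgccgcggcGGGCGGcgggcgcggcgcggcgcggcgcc
SUN2 (chr22:38755999-38756248, minus strand): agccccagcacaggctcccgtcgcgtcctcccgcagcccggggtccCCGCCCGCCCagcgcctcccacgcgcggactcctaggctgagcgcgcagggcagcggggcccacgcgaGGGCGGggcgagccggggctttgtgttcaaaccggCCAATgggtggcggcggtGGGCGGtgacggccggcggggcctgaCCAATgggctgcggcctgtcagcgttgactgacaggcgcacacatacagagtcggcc
LBR (chr1:225428822-225429071, minus strand): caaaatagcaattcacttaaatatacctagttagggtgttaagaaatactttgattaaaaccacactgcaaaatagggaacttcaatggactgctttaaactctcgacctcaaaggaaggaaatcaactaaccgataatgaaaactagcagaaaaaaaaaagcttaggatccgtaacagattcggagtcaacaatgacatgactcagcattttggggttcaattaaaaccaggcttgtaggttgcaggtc
The SUN2 stretch held 2 CCAAT and 4 GGGCGG matches, of which 1 pair overlapped, the LMNB2 stretch held 1 GGGCGG match, and the LBR stretch held neither. The LBR stretch was also poor in G and C, at 36.8%, against 66.4% for LMNB2, 74.8% for SUN2 and a median of 58.0% over 35116 promoter windows. For the 9 member genes found in the promoter table there were 15 windows, of which 7 held CCAAT and 12 held GGGCGG, against 32.0% and 42.6% of all windows. The E2F-type motifs TTTCCCGC and TTTGGCGC were found in 2 of the 15, 1 each of LMNA and LEMD3, against 1.93% of all windows. Windows of 1 gene can overlap or lie close together. These matches describe letters in the windows and are not binding sites.

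Between 18753 and 19817 of 47230 probes were detected on each array, that is had a detection p under 0.05 against the negative controls of the same array, and median signals lay between 142.7 and 146.8. The wild type arrays were close, with 41 of 11311 genes over 2-fold apart, whereas 637 genes were that far apart between the knockout arrays. At its brightest probe MACROH2A1 read 13.04 and 12.96 on the log2 scale on the wild type arrays, against 12.32 and 12.12 on the knockout arrays, with a limma adjusted p of 0.130. A second probe differed by -1.03 ± 0.13 (SE), but another, ILMN_1674034, read 0.78 ± 0.21 higher in knockout. Whether any of them lies in the removed part is not stated, so they check the label only in part. Of 6 epithelial markers 5 were detected on all 4 arrays, and CDH1 on none, and the mean log2 signal of all 6 was 8.41 and 8.56 on the wild type arrays, against 9.01 and 9.05 on the knockout arrays. The leukocyte genes PTPRC, CD3E and ITGAM and the fibroblast gene LUM were detected on no array. The mean log2 signal of 5 fibroblast markers was 6.10 and 5.97 on the wild type arrays, against 6.22 and 6.34 on the knockout arrays. For 5 leukocyte markers it was 6.17 and 6.27 against 6.36 and 6.74, with CD14 and LAPTM5 the 2 detected on all arrays. All 3 list means were thus highest on knockout replicate 2, but not all genes followed them. KRT8, KRT18 and EPCAM read highest on knockout replicate 1, and KRT19 and EGFR on knockout replicate 2. Among fibroblast genes PDGFRB read 6.55 and 6.06 on the wild type arrays, against 7.10 and 7.68 on the knockout arrays. COL1A1 read 5.95 and 5.96 against 6.31 and 6.15, and COL1A2, DCN and LUM lay between 5.87 and 6.11 on all arrays. The part of these markers in the differences below was not tested.

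Among the lamina genes, LMNB2 read lower and SUN2 read higher in knockout, on both arrays, and no member passed the test over all genes. Values are log2 signals after background correction and quantile normalization, and each gene is read at its brightest detected probe. Of the 10 members 0 had a limma adjusted p under 0.05, as did 0% of the 11311 genes tested. At an unadjusted p under 0.05 there were 2 members, 1 higher and 1 lower, where 20.2% of all genes reached that level, 9.64% higher and 10.5% lower. In 5 members the knockout and wild type arrays did not overlap, 3 higher and 2 lower, against 54.1% of all genes, 25.9% higher and 28.2% lower. These shares lie near those of all genes. The differences ran from -0.76 to 0.92, with a median of -0.17, where the median of all genes was -0.0051.

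**Figure D1:**
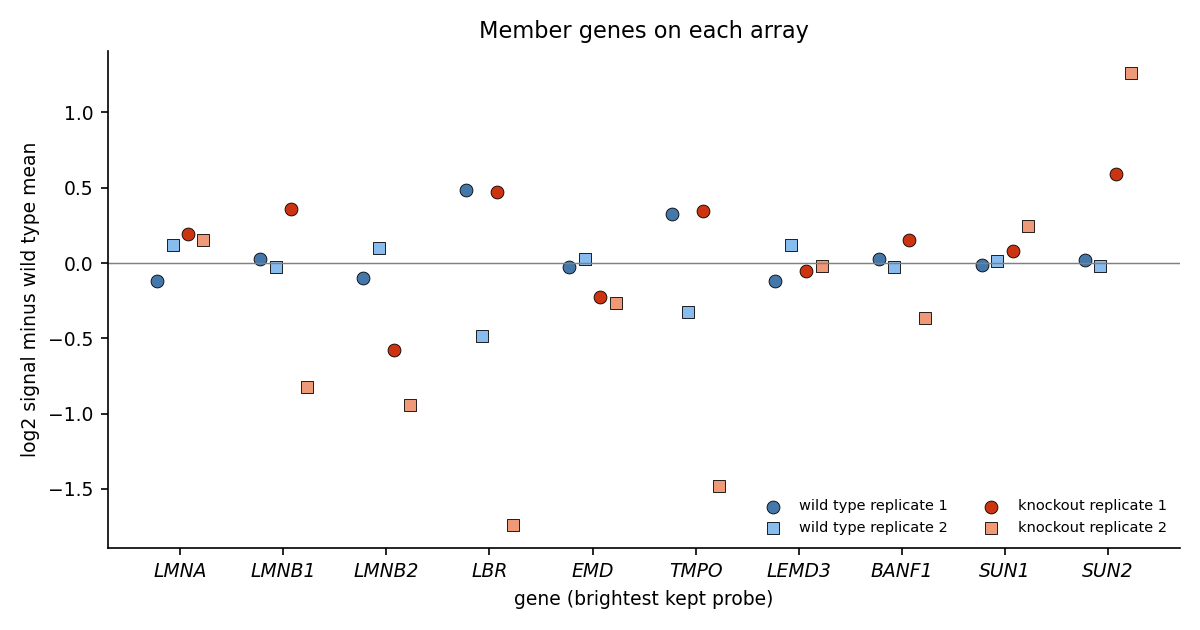
Log2 signal of each of the 10 member genes on each of the 4 arrays, minus the gene's wild type mean, at its brightest kept probe; each point is 1 array. Both knockout points of LMNB2 lie below and both of SUN2 above the wild type points, while LBR, TMPO and LMNB1 are low on knockout replicate 2 only among the knockout arrays.

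LMNB2, which encodes the B-type lamin B2, gave log2 signals of 11.58 and 11.78 on the wild type arrays, against 11.10 and 10.73 on the knockout arrays. Both knockout arrays lay below both wild type arrays, and knockout replicate 2 was the lowest. In the deposited signals, before any normalization, the same probe read 3274 and 3775 in wild type against 2377 and 1651. The difference was -0.76 ± 0.18 (SE, n = 2 per group). This is 1.69-fold lower, with a 95% interval from -1.26 to -0.26 and a limma adjusted p of 0.162. It was the member with the smallest p, ranked 913 among the 11311 genes. Without knockout replicate 1 it passed, at -0.94 (limma adjusted p = 0.0146), and without knockout replicate 2 it was -0.57 (limma adjusted p = 0.108), where the 1 knockout array left is taken to vary as the wild type arrays do. Without wild type replicate 1 or 2 it was -0.86 and -0.66 (limma adjusted p = 0.796 and 0.713).

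LMNB1, which encodes lamin B1, overlapped between the genotypes. Its signals were 7.53 and 7.48 on the wild type arrays, against 7.86 and 6.68 on the knockout arrays, so that knockout replicate 1 was the highest of the 4 arrays and knockout replicate 2 the lowest. The difference was -0.23 ± 0.42 (SE, n = 2 per group), and its 95% interval, from -1.39 to 0.92, spans differences in either direction. Under median scaling, which moved the median of all genes to 0.12, it was 0.043. Without knockout replicate 1 the difference was -0.83 (limma adjusted p = 0.0146), and without knockout replicate 2 it was 0.36 (limma adjusted p = 0.195).

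LMNA, the source of lamins A and C, read 11.10 and 11.34 on the wild type arrays, against 11.41 and 11.38 on the knockout arrays. Both knockout values lay above both wild type values, but wild type replicate 2 was nearer to them than to wild type replicate 1. The difference was 0.17 ± 0.14 (SE, n = 2 per group; limma adjusted p = 0.556), with a 95% interval from -0.21 to 0.56. The dimmer LMNA probe, annotated to the same transcript record, gave 10.45 and 10.68 against 10.73 and 10.57, with overlapping groups and a difference of 0.084 ± 0.14. Whether these probes read lamin A, lamin C or both was not established.

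Changes of B-type and A-type lamins were also set against each other within each array. Relative to the wild type mean, the LMNB1 to LMNA log2 ratio was 0.14 and -0.14 on the wild type arrays, against 0.17 and -0.98 on the knockout arrays. The knockout minus wild type difference was -0.41 (exact permutation test, two-sided, p = 1), in a design of 2 against 2 arrays whose smallest possible p is 0.333. For LMNB2 to LMNA, a pair chosen after the values were seen and therefore not tested, the ratio was 0.019 and -0.019 on the wild type arrays, against -0.76 and -1.10 on the knockout arrays. Both knockout arrays were thus well below the wild type arrays for LMNB2 and 1 of 2 for LMNB1.

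LBR encodes the lamin B receptor, an inner membrane protein that binds B-type lamins and the heterochromatin protein HP1 and that also reduces a sterol intermediate of cholesterol synthesis. Its log2 signals were 9.32 and 8.35 on the wild type arrays, against 9.31 and 7.10 on the knockout arrays. Replicate 2 was the lower array in both genotypes, with replicate 2 minus replicate 1 at -0.97 in wild type and -2.22 in knockout, and knockout replicate 1 was close to wild type replicate 1. The deposited signals were 783 and 483 on the wild type arrays, against 768 and 256 on the knockout arrays. The difference between genotypes was -0.63 ± 0.84 (SE, n = 2 per group; limma adjusted p = 0.725), with a 95% interval from -2.93 to 1.66. Without knockout replicate 1 it was -1.74 (limma adjusted p = 0.0329), and without knockout replicate 2 it was 0.47 (limma adjusted p = 0.550).

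The second kept LBR probe had the same order of arrays within each genotype, at 7.91 and 6.49 on the wild type arrays, against 8.16 and 6.28 on the knockout arrays, with a difference of 0.025 ± 0.84. The third, ILMN_2285480, annotated to another LBR transcript, was detected on 1 of 4 arrays and was not tested. The LBR to LMNA ratio, relative to the wild type mean, was 0.60 and -0.60 on the wild type arrays, against 0.28 and -1.90 on the knockout arrays. Its knockout minus wild type difference was -0.81 (exact permutation test, two-sided, p = 0.667), with the wild type arrays themselves far apart.

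TMPO encodes the LAP2 proteins, LEM family members of which LAP2 beta sits in the inner membrane and LAP2 alpha in the nucleoplasm. Both kept probes are annotated to the same transcript record, and which of these proteins they stand for was not established. Like LBR, TMPO was lower on replicate 2 in both genotypes, with 9.07 and 8.41 on the wild type arrays, against 9.09 and 7.26 on the knockout arrays. Replicate 2 minus replicate 1 was -0.66 in wild type and -1.83 in knockout, and the genotypes differed by -0.57 ± 0.68 (SE, n = 2 per group; limma adjusted p = 0.691). Without knockout replicate 1 the difference was -1.48 (limma adjusted p = 0.0217), and without knockout replicate 2 it was 0.34 (limma adjusted p = 0.546). Probe ILMN_1677747 was detected on replicate 1 of each genotype only, at 6.47 and 6.45, and ILMN_1795340, annotated to a different TMPO transcript, was detected on no array.

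**Figure D2:**
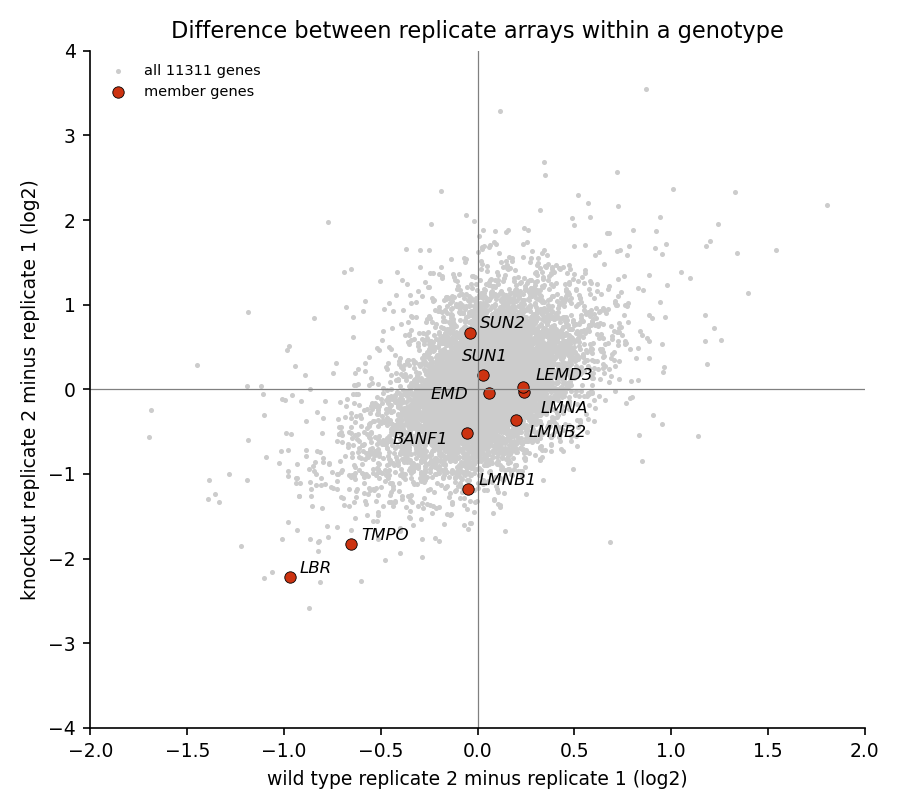
Replicate 2 minus replicate 1 within wild type (x axis) and within knockout (y axis), both on the log2 scale, for 11311 genes in grey and the 10 member genes in red; 1 gene lies outside the axes. LBR and TMPO sit at the lower left, at -0.97 and -2.22 and at -0.66 and -1.83, and LMNB1 is low on the knockout axis alone, at -1.18.

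The remaining 3 proteins, emerin, MAN1 and BAF, link the membrane and lamina to chromatin, and none of them reached an unadjusted p under 0.05. EMD encodes emerin, a LEM protein bound to lamin A, and read 10.79 and 10.84 on the wild type arrays, against 10.59 and 10.55 on the knockout arrays. The groups did not overlap and the replicates were close, but the difference was small, at -0.25 ± 0.12 (SE, n = 2 per group; limma adjusted p = 0.329), and it was -0.065 under median scaling. LEMD3 encodes MAN1, a LEM protein that also binds receptor-regulated SMADs, and read 9.08 and 9.31 against 9.14 and 9.17, a difference of -0.036 ± 0.14. Its 95% interval ran from -0.42 to 0.34. The dimmer LEMD3 probe read 8.59 and 8.54 against 8.52 and 8.28, which did not overlap, at -0.17 ± 0.13. BANF1 encodes BAF, which bridges DNA and binds LEM domains, and read 12.74 and 12.68 on the wild type arrays, against 12.87 and 12.35 on the knockout arrays, again with knockout replicate 2 the lowest. It differed by -0.11 ± 0.21, and its dimmer probe, at 9.44 and 9.14 against 9.18 and 8.61, by -0.40 ± 0.25.

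SUN2 and SUN1 encode the inner membrane proteins of the LINC complex, whose partners in the outer membrane, the nesprins, hold the cytoskeleton. SUN2 read 10.48 and 10.44 on the wild type arrays, against 11.05 and 11.72 on the knockout arrays, both knockout arrays lying above both wild type arrays. In deposited signals this was 1601 and 1631 against 2309 and 3164. The difference was 0.92 ± 0.26 (SE, n = 2 per group), or 1.90-fold higher, with a 95% interval from 0.22 to 1.63 and a limma adjusted p of 0.182. Without knockout replicate 1 it passed, at 1.26 (limma adjusted p = 0.00706), and without knockout replicate 2 it was 0.59 (limma adjusted p = 0.0832). Without wild type replicate 1 or 2 it was 0.94 and 0.90 (limma adjusted p = 0.796 and 0.713). SUN1 read 9.60 and 9.63 against 9.69 and 9.86, which did not overlap, a difference of 0.16 ± 0.13 (limma adjusted p = 0.536). The SUN2 to SUN1 ratio, a pair chosen after the values were seen and not tested, was 0.51 and 1.02 on the knockout arrays relative to the wild type mean, and 0.034 and -0.034 on the wild type arrays.

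**Figure D3:**
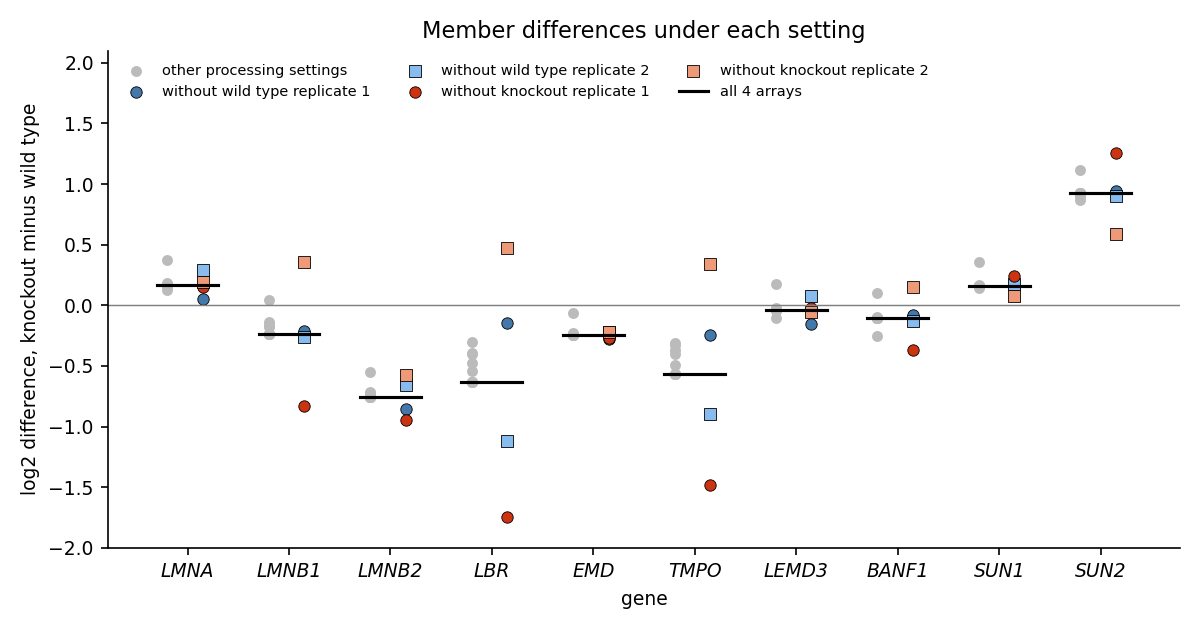
Knockout minus wild type log2 difference of each member gene with all 4 arrays (line), under 10 other processing settings (grey points) and with 1 array left out (coloured points). LMNB2 stays below 0, from -0.94 to -0.55, and SUN2 above it, from 0.59 to 1.26, whereas LBR runs from -1.74 to 0.47. The groups of LMNB2 and SUN2 do not overlap, so leaving out 1 array cannot change their direction.

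Read probe by probe, the 10 genes have 17 probes, of which 15 passed the detection filter and 14 were detected on all 4 arrays. At an unadjusted limma p under 0.05 there were 2 of 15 kept probes, those of LMNB2 and SUN2, against 17.3% of 19752 kept probes, with 8.27% higher and 9.03% lower. The groups did not overlap in 6, 3 higher and 3 lower, against 49.9% of kept probes, 23.8% higher and 26.2% lower. The 5 genes with a second kept probe were LMNA, LBR, TMPO, BANF1 and LEMD3.

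**Figure D4:**
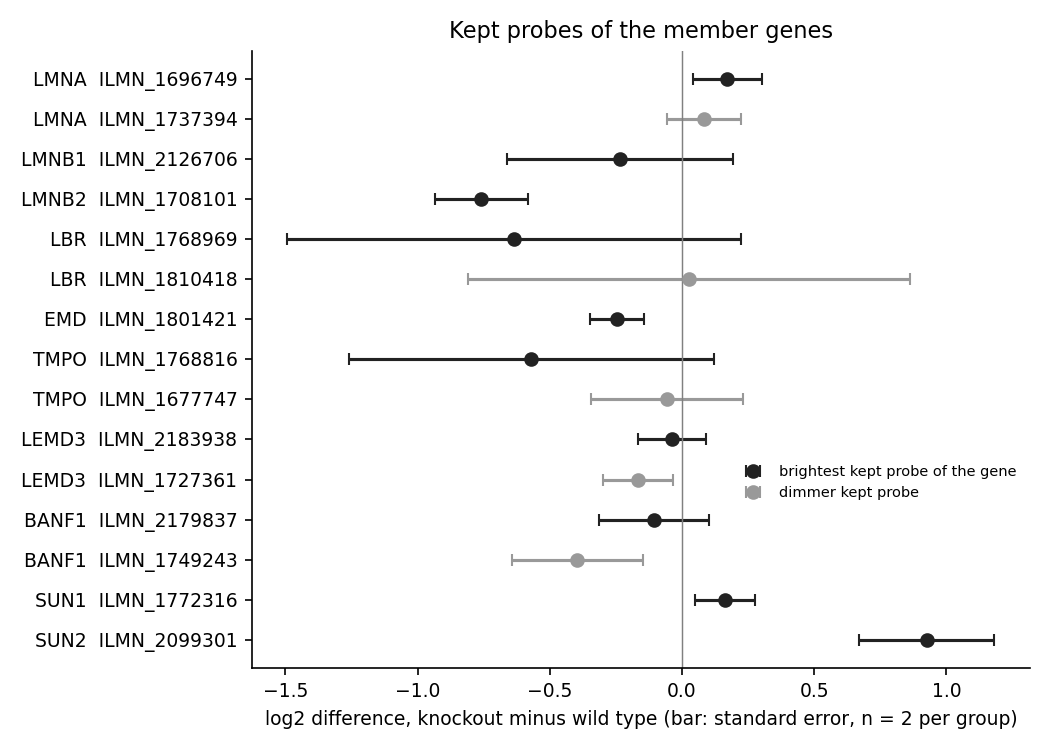
Knockout minus wild type log2 difference of the 15 kept member probes, with bars of 1 standard error from the fit over probes (n = 2 arrays per group); black marks the brightest probe of a gene and grey a dimmer one. The bars of both LBR probes and of the brightest TMPO probe are the widest, and LMNB2 and SUN2 stand at the 2 ends.

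Over the 4 arrays, the genes most like LMNB2, the member with the smallest p, were ALG6, CHST10, ANLN, FEM1A and STAMBPL1. Likeness was the root mean square distance between log2 values centred on each gene's mean, which was 0.0169 for ALG6 and at most 0.0339 for the other 4, among 11301 genes compared. ALG6, the nearest, read 8.81 and 8.97 on the wild type arrays, against 8.32 and 7.93 on the knockout arrays. With 4 values per gene and so many genes compared, close neighbours are bound to be found. Their nearness shows no link in function.

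Genes that work with the lamina were read from 7 lists, in which 0 genes passed over all genes (limma adjusted p) and 20 of 81 measured genes, or 24.7%, had an unadjusted p under 0.05, where all genes gave 20.2%. Up to 3 genes of smallest p are named from each, 21 in all. They were picked on these same arrays, so their values are no test of the lists. Of 6 lamin processing genes, 5 enzymes that mature lamins and NARF, which binds prelamin A, 5 were higher in knockout, NARF among them. Their median difference was 0.34, and 0.57 under median scaling and 0.22 without wild type replicate 2. RCE1, the protease of farnesylated proteins, differed by 0.36 ± 0.12 (SE, n = 2 per group), and the farnesyltransferase subunits FNTB and FNTA by 0.49 ± 0.19 and 0.31 ± 0.22. At an unadjusted p under 0.05 there was 1, RCE1. Under median scaling the 3 differences were 0.58, 0.78 and 0.56. FNTA was 0.036 without wild type replicate 2 and 0.58 without wild type replicate 1, and FNTB was 0.27 without knockout replicate 2.

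Of 14 other inner membrane and LINC genes 11 were measured, and 3 were higher and 8 lower, with a median of -0.11, which was -0.35 without knockout replicate 1 and -0.020 under median scaling. TOR1AIP2, which activates torsin ATPases, read 7.99 and 7.81 on the wild type arrays, against 7.42 and 7.21 on the knockout arrays. It differed by -0.59 ± 0.15 (SE, n = 2 per group, limma unadjusted p = 0.016). NRM, nurim, read 7.13 and 7.18 against 7.45 and 7.50, a difference of 0.32 ± 0.12. Under median scaling these differences were -0.30 and 0.60. TMEM201, an inner membrane protein linked to SUN proteins, was dim, at 6.22 and 6.44 on the wild type arrays, and was not detected on either knockout array. It passed the detection filter through the wild type arrays alone, so its difference of -0.42 is described and is no test. Over the other settings that kept it, the difference ran from -0.68 to -0.28. In this list 1 gene was higher and 2 were lower at an unadjusted p under 0.05, with TMEM201 as 1 of the 2.

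Nuclear pore genes lay lower in 22 of 30 measured, with a median difference of -0.28, which was -0.23 on knockout replicate 1 and -0.36 on knockout replicate 2. At an unadjusted p under 0.05, 7 were lower and 1 was higher, where 10.5% and 9.64% of all genes were. In 17 both knockout arrays lay below both wild type arrays, against 28.2% of all genes. RANBP2, 1 of these 17, passed the detection filter through the wild type arrays alone. Under median scaling the list median was -0.097. RAE1, an mRNA export factor at the pore, read 10.80 and 10.80 on the wild type arrays, against 10.11 and 9.83 on the knockout arrays, so that it differed by -0.83 ± 0.15 (SE, n = 2 per group; limma adjusted p = 0.130). SEH1L, of the Y-shaped scaffold, differed by -0.77 ± 0.15 and NUP160, of the same scaffold, by 0.65 ± 0.14. Members of 1 scaffold thus differed in opposite directions.

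Of 10 partners of the lamina and of LEM proteins, 7 were lower, and 1 had an unadjusted p under 0.05. The median of -0.28 was -0.0077 under median scaling, -0.072 without knockout replicate 2 and -0.13 without wild type replicate 1. This was CBX1, which encodes HP1 beta, a ligand of LBR. CBX1 read 8.96 and 8.80 on the wild type arrays, against 7.56 and 7.05 on the knockout arrays, so that it differed by -1.57 ± 0.22 (SE, n = 2 per group; limma adjusted p = 0.125), which is 2.97-fold lower. It passed without knockout replicate 1, at -1.83 (limma adjusted p = 0.006), and without knockout replicate 2, at -1.32 (limma adjusted p = 0.0365), but not without wild type replicate 1 or 2 (limma adjusted p = 0.796 and 0.713). PRR14, a tether of HP1 to the lamina, differed by -0.46 ± 0.20, and HDAC3, a deacetylase bound by emerin and LAP2 beta, by -0.34 ± 0.18. Without knockout replicate 1 they were -0.27 and -0.15, and under median scaling -0.27 and -0.16.

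Nuclear envelope resealing genes and BAF kinases, 9 in all, were 5 higher and 4 lower, with a median of 0.034, which was -0.0084 without knockout replicate 2 and 0.13 under median scaling. The ESCRT subunits CHMP2A and CHMP4B differed by 1.09 ± 0.18 and 0.56 ± 0.12 (SE, n = 2 per group), and VPS4A, the ATPase that takes these filaments apart, by -0.61 ± 0.14, which was -0.34 under median scaling. Of 6 sterol synthesis genes around the LBR step 5 were measured, 3 higher and 2 lower. Their median was 0.28, or 0.053 without knockout replicate 2. TM7SF2, the other human sterol reductase of that step, read 6.75 and 7.07 on the wild type arrays, against 7.48 and 8.91 on the knockout arrays, so that it differed by 1.29 ± 0.52, or by 0.57 without knockout replicate 2, and passed without knockout replicate 1 (limma adjusted p = 0.00647). MSMO1, which acts directly after it, differed by 1.34 ± 0.26 (limma unadjusted p = 0.00571), or by 0.80 at the mean of its kept probes. EBP, a later isomerase, differed by -0.34 ± 0.24. EBP was -0.052 without knockout replicate 2, -0.64 without knockout replicate 1 and -0.14 under median scaling.

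LMNB1 and TMPO are known to be transcribed more in dividing cells, so proliferation genes are given beside them. Of 10 such genes 9 were lower in knockout, 3 of them at an unadjusted p under 0.05, a level that 10.5% of all genes reached on the lower side, and 49.2% of all genes were higher in knockout. The list median was -0.41, or -0.27 on knockout replicate 1 and -0.61 on knockout replicate 2, and -0.16 under median scaling. FOXM1, AURKB and RRM2 differed by -1.04 ± 0.18, -0.65 ± 0.12 and -2.53 ± 0.69 (SE, n = 2 per group), and RRM2 ran from -3.43 without knockout replicate 1 to -1.63 without knockout replicate 2. RRM2 read 10.16 and 9.34 on the wild type arrays, against 8.12 and 6.33 on the knockout arrays. Replicate 2 was the lower array in both genotypes for RRM2 and for 4 of the 10 genes in all, while all 10 were lower on replicate 2 within knockout. The part of proliferation in the member differences was not tested, and in these bulk samples fewer dividing cells and less RNA per cell cannot be told apart.

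**Figure D5:**
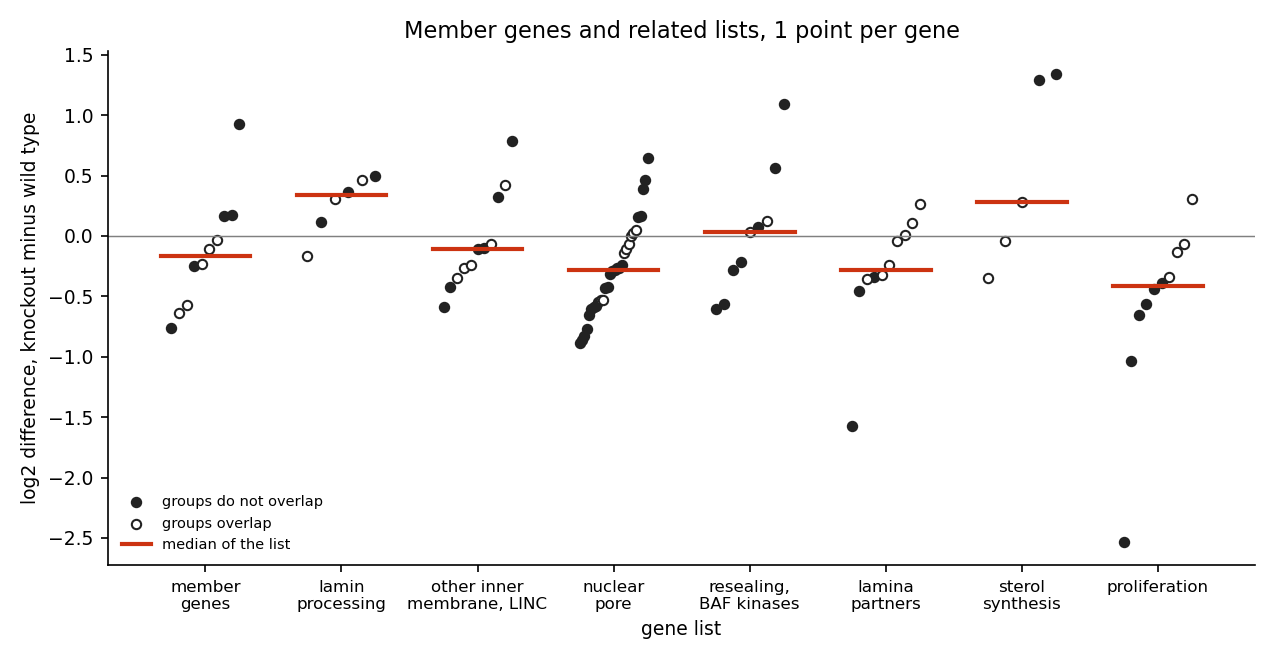
Knockout minus wild type log2 difference of each measured gene (1 point per gene) in the member set and in 7 related lists, with the median of each as a red line; filled points are genes whose knockout and wild type arrays do not overlap. Medians run from -0.41 for proliferation to 0.34 for lamin processing, with the members at -0.17.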

How the data were processed

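Per the labels, biotin-labelled total RNA from MDA-MB-468 cells was hybridised to Illumina bead arrays, with 2 samples wild type and 2 knockout. Per the file headers, the deposited table holds signal intensity per probe and array, neither normalized nor background-subtracted, with a detection p-value for each. The authors' deposited value table holds log2 values whose normalization no label or header states. The submitters' processing notes name GenomeStudio.

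Signals were corrected with limma's normexp, using detection p-values and an offset of 16, then quantile normalized, and log2 was taken (limma 3.58.1 in R 4.3.3). A probe was kept if 2 or more arrays gave it a detection p under 0.05, which left 19752 of 47230. Gene symbols came from GEO's platform annotation, updated by gene number, and 17148 probes are unnamed there. Each of 11311 genes was read at its brightest kept probe, and a second fit took each kept probe. The genotypes were compared with limma's two-sided moderated test, and p-values were adjusted after Benjamini and Hochberg over all genes or all kept probes, with a threshold of 0.05. Ratios within arrays were tested by exact permutation. The offset shrinks folds of dim probes, and the number of arrays limits the precision.

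Named genes are the members, MACROH2A1, up to 3 genes of smallest p in each related list and the 5 genes most like the member with the smallest p. Members and lists were chosen with earlier results of these data known. The fit was tested on simulated data. Promoter windows came from RefSeq on GRCh38.p14; 9 of 10 members matched. Alternatives were no background correction, median scaling, an offset of 50, other detection filters, the authors' values, probe means, an intensity trend, a replicate block and leaving out each array.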

Additional observations from a re-analysis of the deposited data

How the results depend on the processing

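No member passed over all genes (limma adjusted p) with all 4 arrays under any of the 10 other settings tried. With arrays left out, 0 to 5 members passed by gene and 0 to 4 by probe, the highest in both without knockout replicate 1, where the 1 knockout array is taken to have the spread of the other group. The count of members at an unadjusted p under 0.05 ran from 0 to 6 by gene and from 0 to 7 by probe, that of related list genes from 6 to 45 against 20, and that of all genes from 673 to 4662 against 2283. Calls over all genes ran from 0 to 3299 of 11311, with 312 without knockout replicate 2. The highest count was again without knockout replicate 1, so calls in that fit were common among all genes. Whether they were more common among members was not tested. Scaling to equal medians left 1 member by gene, 13 related list genes and 1493 genes in all at an unadjusted p under 0.05. Under it 86.0% of the 1493 were higher, against 47.7%. It put the median of all genes at 0.12, and turned LMNB1 to 0.043, BANF1 to 0.10, LEMD3 to 0.18, the dimmer LEMD3 probe to 0.090 and the dimmer TMPO probe to 0.046.

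Other reversals came from leaving out an array. The difference then ran from -0.83 to 0.36 for LMNB1, from -1.74 to 0.47 for LBR, from -1.48 to 0.34 for TMPO, from -0.36 to 0.15 for BANF1 and from -0.15 to 0.080 for LEMD3. For the dimmer probes it ran from -0.033 to 0.20 (LMNA), from -0.91 to 0.96 (LBR) and from -0.35 to 0.23 (TMPO). The LMNB1 to LMNA difference ran from -0.98 to 0.17 and that of LBR to LMNA from -1.90 to 0.28. Without knockout replicate 2 the brightest probes of LMNB1, LBR, TMPO and BANF1 and both ratios turned, and without wild type replicate 2 LEMD3 did. The cause of these reversals was not tested.

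LMNB2 ran from -0.94 to -0.55 and SUN2 from 0.59 to 1.26 over the 14 alternatives, with no change of direction. Where the groups do not overlap, as in LMNB2, SUN2, LMNA, SUN1 and EMD, leaving out 1 array cannot change the direction. Only the other processing settings could have done so. LMNA, SUN1 and EMD also kept their direction at the brightest probe, but LMNA ran from 0.053 (without wild type replicate 1) to 0.37 (median scaling), SUN1 from 0.081 (without knockout replicate 2) to 0.36 (median scaling) and EMD from -0.27 (without wild type replicate 1) to -0.065 (median scaling). Replicate 1 of the wild type and knockout carries the array letters A and B, and replicate 2 the letters C and D. What else the replicates of a number shared is not stated. Replicate 2 minus replicate 1 correlated across genes between genotypes (r = 0.44). With the replicate number as a block, 2 members by gene had an unadjusted p under 0.05, with 2910 genes in all. LBR then had a limma adjusted p of 0.338.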

Other observations

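LBR read lower on replicate 2 of both genotypes, and genes that did the same were counted. Genes higher on replicate 2 were not. The limits were chosen after the values of LBR were seen, so the shares are no test. Lower on replicate 2 by over 0.9 (log2) in both wild type and knockout were 22 of 11311 genes, or 0.195%, with LBR among them. By over 0.5 it was 188 genes, or 1.66%, and these included both LBR and TMPO. The authors' deposited table shows the same order for LBR, with log2 values of 9.48 and 8.63 on the wild type arrays, against 9.48 and 7.68 on the knockout arrays.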
